A study of Mus musculus with 6 samples.

Results

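The transcription factor NRF2, its targets, the glutathione transferases, the aldehyde dehydrogenases and the aldo-keto reductases were compared between mouse colorectal cancer cells that resist eicosapentaenoic acid (EPA) and cells that do not. The member rule reads gene names and no signals, and it was set with earlier results of these data known. Members comprise every array probe named for a soluble or microsomal glutathione transferase, an aldehyde dehydrogenase (apart from Aldh18a1) or an aldo-keto reductase, and the probes of 18 named genes of the NRF2 pathway. The rule found 129 of the 45281 probes on the array, for 76 of its 30854 gene names. Gsr and Me1 were not analysed here.

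NRF2, encoded by Nfe2l2, is a transcription factor that KEAP1 holds in the cytoplasm and hands to the CUL3 ubiquitin ligase for destruction. Electrophiles and oxidants, including products of lipid peroxidation, modify KEAP1, and NRF2 then enters the nucleus, pairs with a small MAF protein and binds antioxidant response elements. Its classical targets make glutathione, supply NADPH, and reduce or conjugate quinones, carbonyls and aldehydes. Polyunsaturated fatty acids such as EPA are readily oxidised to reactive aldehydes, which glutathione transferases, aldehyde dehydrogenases and aldo-keto reductases detoxify.

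MC38 is a mouse colon tumour line, here the EPA-sensitive one. MC38r is its EPA-resistant counterpart, obtained by continuous exposure to EPA. Per the labels, both were grown in RPMI medium with foetal calf serum and harvested before they became confluent. The labels name no genetic change, no animal and no clone for either line, and do not say whether EPA was present at harvest. Each line was measured on 3 of the 6 arrays (Illumina MouseWG-6 v2.0), and with 1 line of each kind, what goes with resistance and what sets these lines apart otherwise cannot be told apart. Arrays carry replicate numbers, but separate cultures are not stated, so p-values measure only the spread between arrays, which may be technical.

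All arrays shared a chip, on which each line had sections of its own, so section and line cannot be told apart. Between 28.35% and 30.52% of probes were above background per array, and 19 to 145 beads (median 40) stood behind each member probe. Control signals were higher on every MC38 than on every MC38r array, with biotin at 6241 to 7268 against 5450 to 6171 and housekeeping probes at 11552 to 12858 against 10271 to 10673. Their part in the results was not tested. Of 9 epithelial markers 7 were above background on no array, among them Epcam, Cdh1, Krt18 and Krt19. Krt8 was above background on 1 array of each line, and Cdx2 on all MC38r arrays alone. Of 7 fibroblast and mesenchymal markers 6 were above background on all MC38 arrays and 4 on all MC38r arrays. None of 6 leukocyte markers was above background on any array. Of 4 hepatocyte markers Apoa1 was above background, on the MC38r arrays, while Alb, Ttr and Cyp3a11 were not.

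Levels are normalized log2 signals. A probe was above background on an array if its detection p was under 0.01, and it was kept for testing if this held on at least 3 of the 6 arrays. A total of 59 of the 129 member probes were kept, and 61 were above background on no array. Of the kept probes 31 fell and 8 rose, beside 27% and 28.1% (55.1% together) of all kept probes. They belong to 38 genes, and the other 38 genes had none. Each gene is read from its brightest kept probe. A gene rose or fell if it passed the limma test at an adjusted p under 0.05, with adjustment over all 13990 kept probes of the array. In bulk RNA, fewer cells that express a gene and less RNA per cell cannot be told apart.

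The NRF2 and detoxification genes that could be measured were mostly lower in the resistant cells. Of the 38 measured genes 20 fell (52.6%), 6 rose (15.8%) and 12 did not pass. Among all 10213 genes tested 27.3% fell and 28.6% rose, so that 55.8% changed in all. The median log2 change was -0.55 for the members and 0.03 for all genes. A fall of at least 2-fold was fitted for 12 members and a rise of that size for 3, beside 12.1% and 11.6% of all genes. The lines did not overlap for 29 of the 38 members, 23 of them lower and 6 higher in MC38r, beside 62.2% of all genes.

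A gene that is above background in 1 line only enters the test through that line and must differ there. This was the case for 5 of the members that fell (Cbr3, Gstp2, Akr1c12, Gsta4 and Aldh3b1) and for none that rose. The adjusted limma p of these 5 is therefore no support for a difference and is not given. Among the 30 members above background on all 6 arrays 14 fell, 6 rose and 10 did not pass, beside 25.6% falling and 27.2% rising (52.9% together) of all such genes. With no filter on detection, 18 of the 76 member genes fell and 6 rose, beside 8.83% and 9.05% of all genes. The count of 20 falls was 12 when either MC38 replicate 1 or MC38 replicate 3 was left out and the filter was applied again, and 17 in both cases when the same probes were kept. In each of these fits the share of all genes that fell was also lower than in the main fit.

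**Figure D1:**
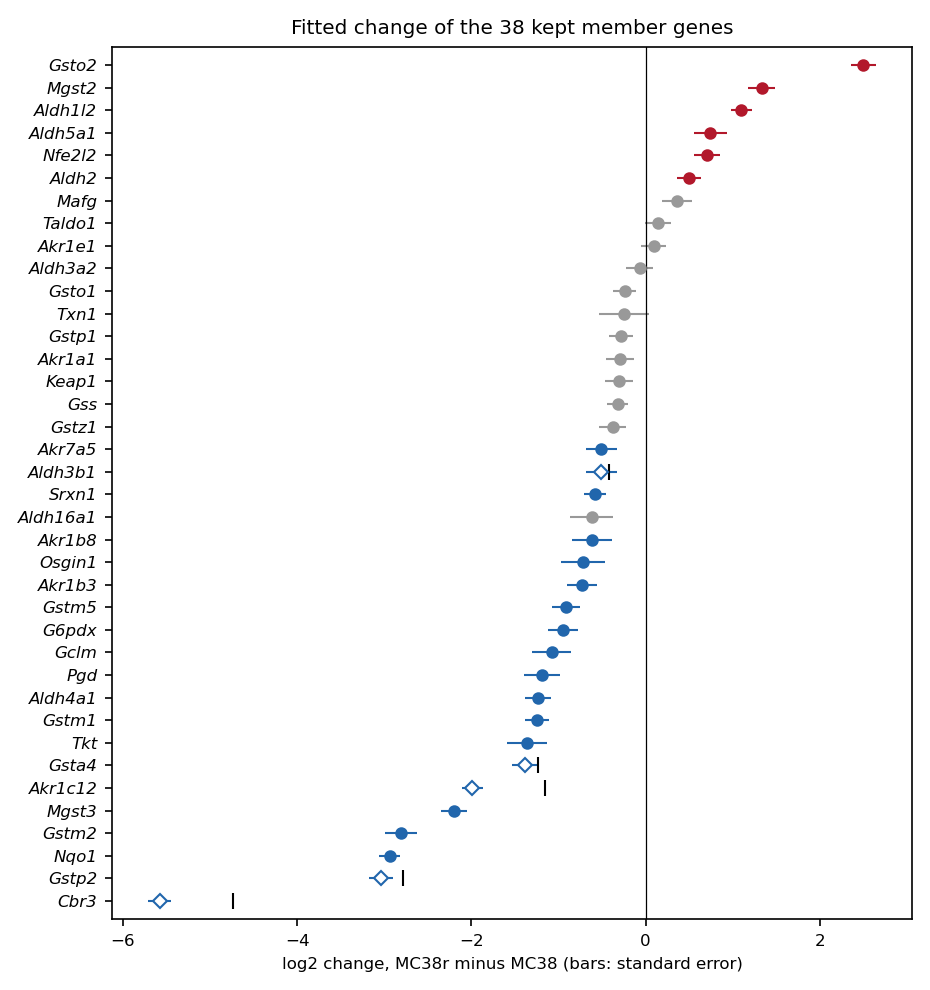
Fitted log2 change of each of the 38 measured genes, MC38r minus MC38, with its standard error. Blue points fell, red points rose and grey points did not pass the limma test, and open diamonds are genes not above background on any MC38r array, with a black tick at the smallest change their background allows. Cbr3, at -5.58, lies lowest and Gsto2, at 2.5, highest.

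In promoters of NRF2 targets the factor binds antioxidant response elements, whose core is often written TGACNNNGC, where N is any base. A related form, TGANTCAGC, also holds the AP-1 letters where its N is C or G. Both were searched on both strands of RefSeq windows from 250 bases before to 50 after the gene's start, in assembly GRCm38.p6. A match is to letters only and shows no binding. Windows were found for 65 of the 76 member genes, and 15 of these (23.1%) held the first form, beside 14% of all 27025 genes with a window. The second form, added after the windows had been seen, stood in 4 member genes (6.15%), Gstp1, Gstp2, Srxn1 and Osgin1, beside 1.37% of all genes. Counting only genes with a window, the first form was in 5 of the 18 that fell (27.8%, Gclm, Gstm5, G6pdx, Pgd and Srxn1). It was in 1 of the 4 that rose (25%, Nfe2l2, as TGACTCCGC) and in 1 of the 12 that did not pass (8.33%, Mafg). Of the 31 without a kept probe 8 held it (25.8%).

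The 4 windows with the second form are shown, with those of Gclm and G6pdx as examples of the first form. Windows of other members with the first form, among them Gstm5, Pgd, Nfe2l2 and Mafg, are not shown. Matched letters are in capitals, and the windows are written 5′ to 3′ on the strand of the gene. Those of Gstp1 (chr19:4037863-4038162, minus strand) and Gstp2 (chr19:4042172-4042471, minus strand) come from neighbouring genes. The others are Srxn1 (chr2:152105274-152105573, plus strand), Osgin1 (chr8:119436897-119437196, plus strand), Gclm (chr3:122245307-122245606, plus strand) and G6pdx (chrX:74428831-74429130, minus strand).
Gstp1: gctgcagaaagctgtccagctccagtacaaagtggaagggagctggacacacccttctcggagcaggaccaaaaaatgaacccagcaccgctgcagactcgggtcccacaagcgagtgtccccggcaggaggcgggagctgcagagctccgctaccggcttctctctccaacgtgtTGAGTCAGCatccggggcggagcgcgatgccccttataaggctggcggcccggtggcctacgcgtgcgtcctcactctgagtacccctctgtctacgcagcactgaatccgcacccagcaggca
Gstp2: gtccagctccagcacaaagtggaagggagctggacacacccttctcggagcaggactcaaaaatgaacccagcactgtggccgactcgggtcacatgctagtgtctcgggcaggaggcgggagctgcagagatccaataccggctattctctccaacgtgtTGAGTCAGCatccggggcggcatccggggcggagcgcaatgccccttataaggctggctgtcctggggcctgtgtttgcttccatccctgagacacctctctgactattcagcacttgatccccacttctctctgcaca
Srxn1: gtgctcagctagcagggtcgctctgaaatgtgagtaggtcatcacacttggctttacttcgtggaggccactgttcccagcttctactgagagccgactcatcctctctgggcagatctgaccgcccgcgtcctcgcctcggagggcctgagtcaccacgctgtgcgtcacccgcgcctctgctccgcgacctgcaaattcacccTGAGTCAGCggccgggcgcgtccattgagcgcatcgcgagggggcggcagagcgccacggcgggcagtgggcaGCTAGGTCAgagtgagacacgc
Osgin1: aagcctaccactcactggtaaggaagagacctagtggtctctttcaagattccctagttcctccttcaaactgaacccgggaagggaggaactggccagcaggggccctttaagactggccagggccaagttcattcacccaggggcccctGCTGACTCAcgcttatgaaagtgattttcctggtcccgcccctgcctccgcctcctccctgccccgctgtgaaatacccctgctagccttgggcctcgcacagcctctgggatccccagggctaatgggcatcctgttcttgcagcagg
Gclm: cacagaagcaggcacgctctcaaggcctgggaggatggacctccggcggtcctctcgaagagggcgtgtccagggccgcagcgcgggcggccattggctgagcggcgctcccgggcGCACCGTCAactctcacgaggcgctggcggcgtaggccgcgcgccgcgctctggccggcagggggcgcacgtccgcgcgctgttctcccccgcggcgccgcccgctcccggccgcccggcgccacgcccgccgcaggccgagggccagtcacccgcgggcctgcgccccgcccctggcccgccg
G6pdx: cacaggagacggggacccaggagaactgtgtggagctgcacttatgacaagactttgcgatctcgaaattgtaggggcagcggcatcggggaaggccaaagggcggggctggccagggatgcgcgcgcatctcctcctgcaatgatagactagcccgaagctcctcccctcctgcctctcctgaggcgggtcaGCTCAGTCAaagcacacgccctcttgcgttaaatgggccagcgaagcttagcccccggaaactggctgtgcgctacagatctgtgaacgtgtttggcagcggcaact
Both Gstp windows hold TGAGTCAGC, from position -74 in Gstp1 and from -89 in Gstp2, counted from the gene's start. Over their best local alignment they were identical in 239 of 291 columns (82.1%). Srxn1 has the same letters from -45 and a match to the first form on the opposite strand from 29. In Osgin1 the match lies on the opposite strand from -99, in Gclm from -134 and in G6pdx from -57.

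Among the regulators, Nfe2l2 itself was higher in the resistant cells. It stood at 7.3, 7.59 and 7.55 on the MC38 arrays and at 8.17, 8.38 and 8 on the MC38r arrays. All MC38r arrays lay above all MC38 arrays, a rise of 1.63-fold (log2 change 0.7 ± 0.15, SE, adjusted p = 0.00338). A second Nfe2l2 probe was above background on no array.

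Keap1, the inhibitor of NRF2, was at 9.71, 9.33 and 9.63 in MC38, against 9.05, 9.26 and 9.43 in MC38r. The lines overlapped and the gene did not pass (-0.31 ± 0.16, SE, adjusted p = 0.123). All 4 kept Keap1 probes had a lower mean in MC38r, between -0.19 and -0.46 on the log2 scale, and the lowest of these changes passed (adjusted p = 0.0441). The gene passed with the mean of its probes (-0.33) and with the deposited series values (-0.29), and its brightest probe passed without MC38 replicate 2 (-0.43). Mafg, a small MAF partner of NRF2, had 9.39, 9.89 and 9.32 in MC38 and 9.98, 9.86 and 9.85 in MC38r. MC38 replicate 2 lay within the MC38r range, and Mafg did not pass with it (0.36 ± 0.17, SE, adjusted p = 0.0948) but did without it (0.54). Maff, another small MAF, was above background on no array.

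The reductases Nqo1 and Cbr3 showed 2 of the 3 largest fitted falls among the members. Nqo1 reduces quinones to hydroquinones and is widely used as a readout of NRF2 activity. It stood at 8.7, 8.62 and 8.74 in MC38, against 5.79, 5.7 and 5.77 in MC38r. The lines were far apart and their arrays close together, for a 7.65-fold difference (-2.94 ± 0.12, SE, adjusted p = 8.85e-08). A second Nqo1 probe was above background on no array.

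Cbr3, a carbonyl reductase, had 10.08, 9.84 and 10.02 in MC38, and 4.33, 4.49 and 4.38 in MC38r, where it was not above background. It was lower by at least 26.7-fold. Folds written as "at least" compare the bright line with the lowest signal above background on each array of the other, 5.19 to 5.36 on the log2 scale. A second Cbr3 probe was likewise above background on the MC38 arrays alone and was lower by at least 4.84-fold. Its chromosomal neighbour Cbr1 was near background, at 5.35, 5.71 and 5.75 in MC38, 2 of these above it, and at 5.06, 4.81 and 4.75 in MC38r, none above it, and was not tested.

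**Figure D2:**
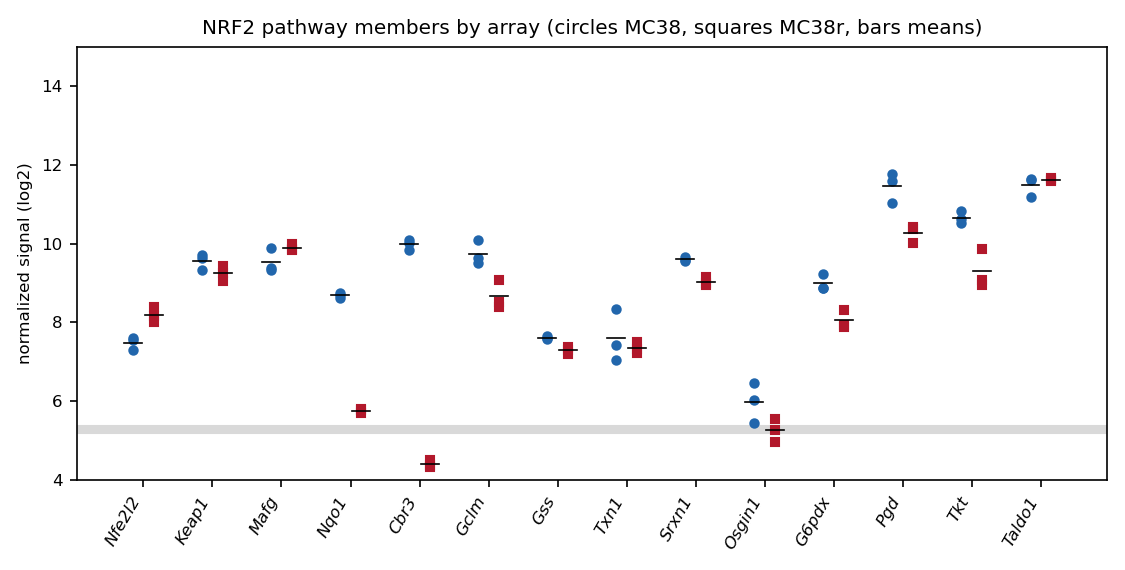
Normalized log2 signal of the 14 measured NRF2 pathway members on each array, with MC38 as blue circles, MC38r as red squares and line means as bars. The grey band, 5.19 to 5.36, spans the lowest signals called above background. Nqo1 and Cbr3 drop far between the lines, Nfe2l2 lies higher in MC38r, and Taldo1 overlaps.

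Glutathione synthesis was read from Gclm and Gss. Gclm, the modifier subunit of glutamate-cysteine ligase, stood at 9.63, 10.08 and 9.51 in MC38, against 9.08, 8.39 and 8.52 in MC38r. It fell 2.11-fold (-1.08 ± 0.22, SE, adjusted p = 0.00228) with no overlap. Gclc, the catalytic subunit, was above background on no array.

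Gss, glutathione synthetase, had 7.64, 7.57 and 7.6 in MC38 and 7.3, 7.36 and 7.19 in MC38r by its brightest probe. Every MC38r array was below every MC38 array, yet the probe just missed the threshold (-0.32 ± 0.12, SE, adjusted p = 0.0504). The gene passed under 8 of 11 other settings of the processing but with no single array left out. These settings include the mean of its probes (-0.5) and the deposited series values (-0.43), which do not read this probe alone. Another Gss probe fell by 1.06 on the log2 scale (adjusted p = 0.000134), and a further one stood at -0.12. The size of the Gss change therefore depended on the probe.

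The thioredoxin arm was read from Srxn1 and Txn1. Srxn1, sulfiredoxin, which restores overoxidised peroxiredoxins, was at 9.58, 9.67 and 9.57 in MC38, against 9.16, 8.94 and 9 in MC38r. It fell 1.49-fold (-0.58 ± 0.13, SE, adjusted p = 0.00382), and its 3 kept probes all fell, by 0.46 to 0.63 on the log2 scale. Txn1, thioredoxin, was at 7.43, 8.33 and 7.03 in MC38, against 7.49, 7.32 and 7.23 in MC38r. MC38 replicate 2 stood apart, the lines overlapped and the gene did not pass (-0.25 ± 0.29, SE, adjusted p = 0.482). Without that array the change was 0.12, while the mean of both kept probes passed at -0.4. A dimmer Txn1 probe, not above background in MC38r, was lower by at least 1.33-fold. Txnrd1, thioredoxin reductase, was above background on 1 MC38r array and was not tested.

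Osgin1, a growth inhibitor induced by oxidative stress, stood at 6.03, 5.44 and 6.46 in MC38, against 4.96, 5.26 and 5.54 in MC38r, above background on 2 MC38r arrays. The lines overlapped, and the fall was 1.65-fold (-0.72 ± 0.25, SE, adjusted p = 0.0356). It did not pass, at -0.48 to -0.73, when MC38 replicate 1, MC38 replicate 3, MC38r replicate 1 or MC38r replicate 2 was left out, nor with an offset of 50 (-0.44) or with no detection filter.

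The pentose phosphate pathway regenerates the NADPH that glutathione and thioredoxin reductases use. Of its 4 enzymes among the members 3 fell and 1 did not pass, beside 27.3% falling and 55.8% changing of all genes. G6pdx, the entry enzyme glucose-6-phosphate dehydrogenase, was at 8.86, 9.24 and 8.88 in MC38, against 8.32, 7.89 and 7.93 in MC38r. It fell 1.93-fold (-0.95 ± 0.17, SE, adjusted p = 0.0012). Pgd, phosphogluconate dehydrogenase, the other NADPH-producing step, had 11.6, 11.03 and 11.77 in MC38 and 10.02, 10.43 and 10.37 in MC38r, a 2.29-fold fall (-1.19 ± 0.21, SE, adjusted p = 0.000982). For neither enzyme did the lines overlap.

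Tkt, transketolase of the pathway's non-oxidative branch, was at 10.83, 10.63 and 10.53 in MC38, against 8.96, 9.86 and 9.07 in MC38r. The fall was 2.58-fold (-1.36 ± 0.23, SE, adjusted p = 0.0008), with MC38r replicate 2 closest to the MC38 arrays. Taldo1, transaldolase of the same branch, stood at 11.65, 11.19 and 11.63 in MC38, against 11.59, 11.61 and 11.68 in MC38r. The lines overlapped, and Taldo1 did not pass (0.14 ± 0.15, SE, adjusted p = 0.473).

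Glutathione transferases conjugate glutathione to electrophiles. Of 24 on the array 11 had a kept probe, of which 6 fell, 2 rose and 3 did not pass, beside 27.3% falling and 28.6% rising of all genes. The lines overlapped for none of the 11, beside 62.2% of all genes without overlap, and the median log2 change was -0.91. Members of the mu class, encoded together on chromosome 3, fell wherever they were measured. Gstm2 was at 10.01, 9.65 and 10.14 in MC38, against 6.83, 7.3 and 7.24 in MC38r, a 7.01-fold fall (-2.81 ± 0.18, SE, adjusted p = 1.6e-06). Its other 2 kept probes fell too (-2.62 and -2.43). Gstm1 fell 2.38-fold (9.62 ± 0.16, SD, n = 3, to 8.37 ± 0.14), although a dim probe of it did not pass at -0.16, and Gstm5 fell 1.88-fold. The other 4 of the 7 mu genes (Gstm3, Gstm4, Gstm6 and Gstm7) were above background on no array. Mu genes are close copies of each other, and 1 probe may read several.

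The pi class, on chromosome 19, has 2 copies on the array. Gstp2 stood at 8.05, 7.93 and 8.1 in MC38, against 4.87, 5.17 and 4.92 in MC38r. It was not above background in MC38r and was lower by at least 6.9-fold. Gstp1 was at 13.98, 13.89 and 14.12 in MC38, against 13.65, 13.61 and 13.88 in MC38r. The Gstp1 arrays did not overlap between the lines, but the difference did not pass (-0.28 ± 0.14, SE, adjusted p = 0.111). Its second kept probe passed at -0.38 (adjusted p = 0.0391), and the gene passed with the mean of its probes (-0.33), with the intensity trend (-0.28) and with the deposited series values (-0.33). The difference between both genes' changes was not tested. Since the genes are near copies, a Gstp1 probe may also read Gstp2. The Gstp2 probe was not above background on the MC38r arrays, where Gstp1 stood at 13.61 to 13.88.

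Gsta4, an alpha class enzyme known for conjugating the lipid peroxidation product hydroxynonenal, had 6.44, 6.57 and 6.41 in MC38 and 5.2, 4.82 and 5.24 in MC38r. It was not above background in MC38r and was lower by at least 2.35-fold. Gsta1, Gsta2 and Gsta3 were above background on no array.

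Microsomal transferases moved in opposite directions. Mgst3 was at 10.11, 9.84 and 10.17 in MC38, against 7.61, 7.99 and 7.93 in MC38r, a 4.58-fold fall (-2.2 ± 0.15, SE, adjusted p = 2.95e-06), and its second probe fell by 1.91 on the log2 scale. Mgst2, which can join glutathione to leukotriene A, stood at 7.58, 7.56 and 7.95 in MC38, against 9.21, 8.95 and 8.92 in MC38r, a 2.51-fold rise (1.33 ± 0.16, SE, adjusted p = 8.95e-05). Neither gene's lines overlapped. Mgst1 was above background on no array.

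The omega class, whose enzymes act as thiol transferases and reduce dehydroascorbate, held the largest rise among the members. Gsto2 was at 5.79, 6.07 and 6.18 in MC38, against 8.61, 8.47 and 8.46 in MC38r, 5.66-fold higher (2.5 ± 0.14, SE, adjusted p = 7.55e-07), and a second probe rose by 2.08 on the log2 scale. Its neighbour Gsto1 stood at 13.19, 13 and 13.23 in MC38, against 12.79, 12.97 and 12.94 in MC38r and did not pass (-0.24 ± 0.13, SE, adjusted p = 0.152), though it did with the deposited series values (-0.28). Gstz1, maleylacetoacetate isomerase of tyrosine breakdown, was at -0.38 ± 0.15 (SE) and just missed the threshold (adjusted p = 0.052), which it passed under 5 of the 11 other settings of the processing, at -0.37 to -0.4, and at -0.44 without MC38 replicate 2. None of the 4 theta genes had a kept probe, nor did Gstk1.

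**Figure D3:**
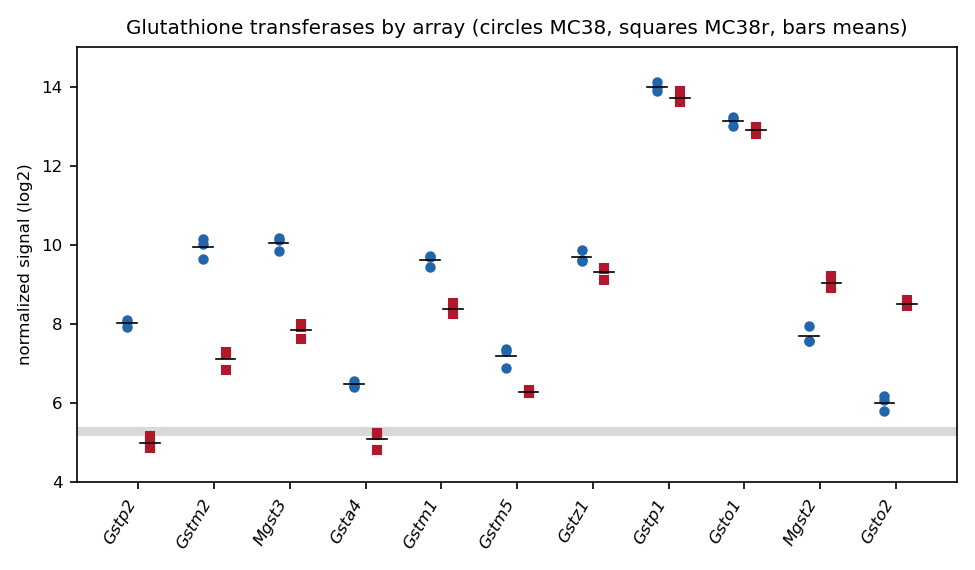
Normalized log2 signal of the 11 measured glutathione transferases on each array, ordered by their change, with MC38 as blue circles, MC38r as red squares, line means as bars and the grey band at 5.19 to 5.36. Gstp2, Gstm2 and Mgst3 drop most and Gsto2 and Mgst2 rise.

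Aldehyde dehydrogenases oxidise aldehydes to acids with NAD or NADP. Of 19 on the array 7 had a kept probe, of which 3 rose (42.9%), 2 fell (28.6%) and 2 did not pass, with a median log2 change of -0.07. In all 71.4% of these changed, beside 55.8% of all genes, and the share that fell was near the 27.3% of all genes. Aldh1l2, the mitochondrial formyltetrahydrofolate dehydrogenase of the folate cycle, rose from 9.69, 9.66 and 9.82 in MC38 to 10.84, 10.81 and 10.83 in MC38r, 2.15-fold (1.1 ± 0.12, SE, adjusted p = 6.1e-05). Its second probe rose by 1.35 on the log2 scale. Aldh2, the mitochondrial enzyme that oxidises acetaldehyde and lipid aldehydes, had 11.55, 11.38 and 11.73 in MC38 and 11.94, 12.15 and 12.08 in MC38r. It rose 1.42-fold (0.5 ± 0.14, SE, adjusted p = 0.0127), and the rise did not pass without MC38r replicate 2 (0.46). For both genes the lines did not overlap.

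Aldh5a1, succinate semialdehyde dehydrogenase, stood at 7.48, 6.97 and 7.38 in MC38, against 7.67, 8.2 and 8.18 in MC38r by its brightest probe, a 1.67-fold rise (0.74 ± 0.19, SE, adjusted p = 0.0101). Its second kept probe had 6.5, 5.88 and 6.42 in MC38 and 6.15, 6.06 and 6.34 in MC38r and did not pass, at -0.08. It was the only one of the 15 genes with several kept probes whose probes differed in sign, and the mean of both probes did not pass (0.33).

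Aldh4a1, a mitochondrial enzyme of proline breakdown, was at 7.42, 7.2 and 7.41 in MC38, against 5.98, 6 and 6.32 in MC38r, a 2.37-fold fall (-1.24 ± 0.15, SE, adjusted p = 8.8e-05). Aldh3b1 had 5.39, 5.55 and 6.05 in MC38 and 5.05, 5.15 and 5.24 in MC38r. None of the MC38r signals was above background, and Aldh3b1 was lower by at least 1.34-fold. With the same probes kept, its change did not pass without MC38 replicate 3 (-0.32) or without MC38r replicate 1 (-0.46), 2 (-0.52) or 3 (-0.56), nor did it with an offset of 50 (-0.29), the deposited series values (-0.18) or no detection filter. Aldh3a2, the fatty aldehyde dehydrogenase, did not pass by either kept probe (-0.07 and -0.04). Aldh16a1 was at -0.62 ± 0.25 (SE) and did not pass (adjusted p = 0.061), though it did under cyclic loess (-0.67) and without MC38r replicate 1 (-0.9). Aldh1a1, Aldh1a2, Aldh1a3 and Aldh1a7, the first 3 of which encode retinoic acid-producing enzymes, were above background on no array, and neither was Aldh1l1, the cytosolic relative of Aldh1l2. Aldh3a1 was above background on 2 MC38 arrays and Aldh1b1 on 1 MC38r array, and neither was tested.

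Aldo-keto reductases reduce aldehydes and ketones to alcohols with NADPH. Of 15 on the array 6 had a kept probe, of which 4 fell, none rose and 2 did not pass, beside 27.3% falling and 28.6% rising of all genes, with a median log2 change of -0.57. In all 66.7% of these changed, beside 55.8% of all genes. With limma, an unadjusted p under 0.05 was reached by the same number, 4 lower and none higher. Akr1c12 stood at 6.35, 6.36 and 6.49 in MC38, against 4.45, 4.34 and 4.41 in MC38r. It was not above background in MC38r and was lower by at least 2.23-fold. Akr1b3, aldose reductase, had 7.41, 7.7 and 7.45 in MC38 and 6.66, 6.61 and 7.11 in MC38r, and its 1.66-fold fall (-0.73 ± 0.17, SE, adjusted p = 0.00519) held with each array left out.

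The remaining falls in this family were near the threshold, and neither passed with the replicate block, with a floor in place of normexp or with no detection filter. Akr1b8, a relative of aldose reductase, was at 9.56, 9.96 and 9.43 in MC38, against 9.41, 8.53 and 9.14 in MC38r, 1.54-fold lower (-0.62 ± 0.23, SE, adjusted p = 0.0457). With the same probes kept it did not pass without MC38 replicate 1 (-0.67) or 2 (-0.47), or without MC38r replicate 2 (-0.38) or 3 (-0.68). Akr7a5, an aldehyde reductase, had 10.71, 10.33 and 10.85 in MC38 and 9.82, 10.25 and 10.29 in MC38r (-0.51 ± 0.18, SE, adjusted p = 0.0398). It did not pass without MC38 replicate 1 (-0.47) or 3 (-0.4), or without MC38r replicate 1 (-0.36), 2 (-0.58) or 3 (-0.6), while a second of its 3 kept probes fell by 0.55 on the log2 scale (adjusted p = 0.00956). Akr1a1, aldehyde reductase, did not pass by either kept probe (-0.29 and -0.23), and neither did Akr1e1 (0.09). Akr1c18 was above background on 2 MC38 arrays and Akr1b7 on 2 MC38r arrays, and neither was tested.

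**Figure D4:**
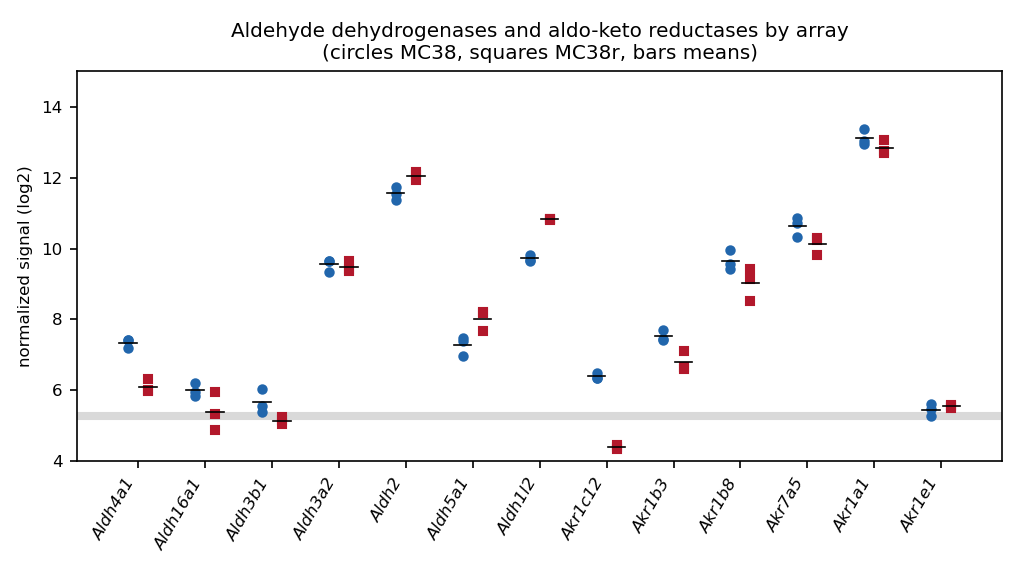
Normalized log2 signal of the 7 measured aldehyde dehydrogenases (left) and 6 aldo-keto reductases (right) on each array, each family ordered by its change, with MC38 as blue circles, MC38r as red squares, line means as bars and the grey band at 5.19 to 5.36. Akr1c12 drops below the band in MC38r and Aldh1l2 rises.

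Of the 15 genes with several kept probes 6 had probes that all rose or all fell (Aldh1l2, Cbr3, Gstm2, Gsto2, Mgst3 and Srxn1), and in 2, Akr1a1 and Aldh3a2, no probe passed. The probes of the other 7 differed in their calls. The fitted changes had 1 sign within each of 14 genes. The widest spread was that of Cbr3, -2.78 against -5.58, whose MC38r signals were at background with both probes. Those of Gstm1 and Gss spread by 1.09 and 0.94. A further 16 probes that were not kept belong to 11 of the genes that were measured.

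**Figure D5:**
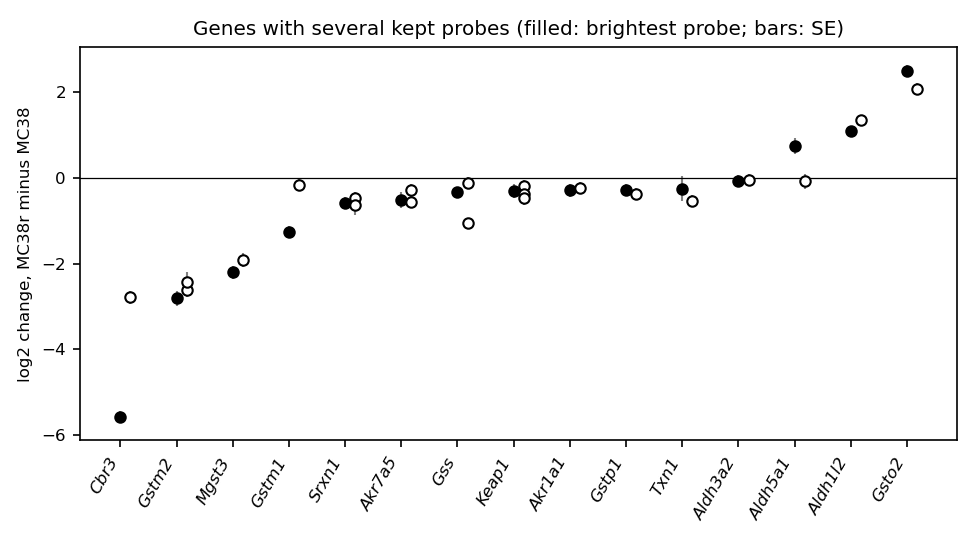
Log2 change, MC38r minus MC38, of every kept probe of the 15 genes with several, with its standard error. Filled points are the brightest probe and open points the others, and Aldh5a1 is the gene whose probes lie on both sides of 0.

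Members that lie within 1 Mb of another member (RefSeq, GRCm38.p6) formed small clusters. In the mu cluster on chromosome 3 all 3 measured genes fell. Akr1b3 and Akr1b8, on chromosome 6, both fell, as did Akr7a5 and Aldh4a1 on chromosome 4, which belong to different families. The falls of Akr1b8 and Akr7a5 were near the threshold, and 27.3% of all genes fell. In the chromosome 19 cluster of Aldh3b1, Aldh3b2, Gstp1 and Gstp2, Aldh3b1 and Gstp2 fell, Gstp1 did not pass and Aldh3b2 was not tested. Of 9 Akr1c and Akr1e genes on chromosome 13 Akr1c12 and Akr1e1 were measured, and Akr1c12 fell. None of the 4 theta genes on chromosome 10 was tested. Of Gsto1 and Gsto2, on chromosome 19, Gsto2 rose and Gsto1 did not pass, and the difference between their changes was not tested.

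Genes of the NRF2 pathway outside these members moved in both directions. In a list of 36 such genes 25 were measured, of which 8 fell (32%), 6 rose (24%) and 11 did not pass, shares near those of all genes, and the median log2 change was -0.23. Slc7a11, the cystine carrier that feeds glutathione synthesis, went from 6.15, 6.57 and 6.33 in MC38 to 8.29, 7.98 and 8.23 in MC38r, a 3.53-fold rise (1.82 ± 0.16, SE, adjusted p = 1.11e-05). Its lines lay well apart, in the direction opposite to Gclm. Ugt1a6a, a glucuronosyltransferase whose last exons other Ugt1a forms share, was 3.44-fold higher as fitted, and was above background on 2 MC38 arrays.

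Ephx1, microsomal epoxide hydrolase, was at 7.32, 6.65 and 7.15 in MC38, against 10.24, 10.5 and 10.56 in MC38r (adjusted p = 6.45e-07), and the exporter Abcc4 rose 2.42-fold. Lower by at least 2-fold were the haem carrier Slc48a1 (3.59-fold), Dpp3, a peptidase that can bind KEAP1 (2.76-fold), the NADP-dependent isocitrate dehydrogenase Idh1 (2.61-fold) and the exporter Abcc5 (2.39-fold). The KEAP1 ligase partners Cul3 (-0.02 ± 0.13, SE) and Rbx1 (-0.26 ± 0.13) did not pass, although Rbx1 did with the mean of its probes (-0.96) and the deposited series values (-0.54). The NRF2 relative Nfe2l1 (0.19 ± 0.14) and the repressor Bach1 (-0.28 ± 0.24) did not pass either, and Bach1 did without MC38 replicate 2 (-0.54). Mafk was above background on no array.

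The authors' deposited table of 6244 genes lists 28 of the member genes, 23 below 0 and 5 above 0 on its log2 scale. How all 6244 genes divide by sign and by adjusted p was not computed, so the member counts have no background share beside them. Of the 28 listed members 4 had no kept probe here. Of the 24 that were also tested here, all have the same sign in the authors' deposited table as in the limma fit. That table shares the arrays used here and is no independent evidence. Each member it lists has an unadjusted p under 0.05 there, with no test stated, so the signs could hardly differ. In the authors' deposited table an adjusted p under 0.05 is given for 6 members, Gsto2 (2.04) and Aldh1l2 (1.11) above 0 and Gstp2 (-2.53), Nqo1 (-2.22), Akr1c12 (-1.94) and Gsta4 (-1.07) below 0. Cbr3, at -4.22, has 0.0502 in the authors' deposited table, and 6 genes called by limma are not in it.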

How the data were processed

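Total RNA of the MC38 and MC38r lines was measured on bead arrays. The deposited probe table holds linear intensity values, which the authors had quantile-normalized in GenomeStudio 1.9.0, per the file headers. Between 35% and 35.1% of them per array lie below 0, so a background had been subtracted. The deposited detection value is a score, 1 minus the detection p. The beads behind each signal, a plain number, are per the file headers. The authors' deposited comparison gives a linear ratio, its log2 value and p-values, with no test stated.

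Signals were corrected with normexp (nec of limma 3.58.1 in R 4.3.3, detection p-values, offset 16), log2-transformed and quantile-normalized again. limma (lmFit, eBayes, line as the only term) was fitted on 13990 kept probes, with Benjamini-Hochberg adjustment. The median standard error was 0.16, and the number of arrays limits precision. The fit was tested on simulated data. All 76 gene names matched a RefSeq gene, 1 through an older symbol (AKR1A4, now Akr1a1). Members, lists and the naming rule were chosen with earlier results of these data known. Every member may be named, with values per array for the NRF2 genes, for up to 4 rises and 4 falls of each enzyme family and for genes whose probes disagree. The design assumed raw signals, and its steps were kept on the normalized table. Alternatives covered background, scaling, offset, filter, probe summary, features fitted, replicate block, variance model, the deposited series values and omitted arrays. Omissions with the same probes kept were added after seeing the data.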

Additional observations from a re-analysis of the deposited data

How the results depend on the processing

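Under the 24 alternatives the count of members that rose stayed between 5 and 7, and that of falls between 15 and 25 except without MC38 replicate 1 or MC38 replicate 3, with 12 each, where the filter applied again kept 33 genes. With each array left out in turn, rises numbered 5 to 7 and falls 12 to 18, or 16 to 21 with the same probes kept. The share of all genes that fell was then also below the 27.3% of the main fit. The exception was leaving out MC38 replicate 2 with the same probes kept. Whether members lost more falls than all genes did was not tested. Leaving out MC38 replicate 2 and MC38r replicate 1 together gave 7 rises and 21 falls. Both arrays were the highest of their line for Gclm, G6pdx and Akr1b8 and the lowest for Pgd, Akr7a5 and Aldh5a1. Other members, such as Nfe2l2, did not share this, and a factor common to both arrays was not tested. No scaling moved the median of all genes by over 0.03 on the log2 scale. Of 34 named genes that were called, 28 kept their direction and call under every alternative that gave a value. The other 6 were Aldh2, Aldh3b1, Aldh5a1, Akr1b8, Akr7a5 and Osgin1. Signs turned only for genes that did not pass: Taldo1 (-0.01 without MC38 replicate 2, up to 0.22 without other arrays), Akr1e1 (0 without MC38 replicate 3, up to 0.17), Txn1 (0.12 without MC38 replicate 2, down to -0.54 without other arrays, 0.04 without that array and MC38r replicate 1) and Cul3 (0.25 with the mean of probes, 0.05 with the series values, 0.03 without MC38 replicate 1, 0 without MC38r replicate 2, down to -0.1). The cause was not tested.

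The deviations of same-numbered arrays from their line's mean correlated at -0.46, -0.44 and 0.3, and no MC38 array correlated best with its own number. With 3 arrays per line, such correlations cannot show whether the cultures were paired. With the replicate block 6 members rose and 18 fell, without Akr1b8 (-0.62) and Akr7a5 (-0.51). The shares of all genes that rose and that fell were then also lower than in the main fit. Genes at background in 1 line have only a bound. With such genes at their bound the members' median change was -0.54. Most of these bounds still lie below that median, so it could hardly move. The median was -0.35 among members above background on all 6 arrays, and -0.15 over all members with no filter on detection.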
